A study of Homo sapiens with 2 samples.

Results

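The IKAROS family genes IKZF1, IKZF2, IKZF3 and IKZF5 were examined for H3K27ac, the acetyl mark on lysine 27 of histone H3 that is found at promoters and enhancers in use, in LOUCY, a human T-ALL (T-cell acute lymphoblastic leukaemia) line. The members were the peaks of the deposited H3K27ac list that overlapped by 1 bp or more the body of each gene plus 50 kb either side, in hg19. There were 56 such peaks of 52203 in the list, 16 at IKZF1, 23 at IKZF2, 14 at IKZF3 and 3 at IKZF5. The series held 1 H3K27ac library, made from cross-linked and sonicated chromatin of LOUCY cells, and 1 library of input DNA from the same line. Peak calling used 54357332 of 62626946 H3K27ac tags and 71932640 of 74212738 input tags. With 1 library per group there was no replicate error, so every value describes these libraries and no difference was tested. No hg19 annotation was used here, so marker genes of the line were not checked and the cell type is that of the labels.

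IKAROS family proteins are zinc finger transcription factors of blood cells. One set of fingers binds DNA and another, at the end of the protein, joins family members into dimers, and the dimers recruit chromatin complexes such as NuRD that repress or maintain genes during lymphoid development. IKZF1 encodes Ikaros, which is needed for lymphocyte formation and is a tumour suppressor in acute leukaemia. IKZF2 encodes Helios, best known from early progenitors and regulatory T cells, and IKZF3 encodes Aiolos, best known from B cells and maturing lymphocytes. IKZF5 encodes Pegasus, a more distant relative with a broad pattern of expression that is known from inherited thrombocytopenia. The fourth relative of the classical group, Eos, was not analysed here.

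The promoters are shown first because the results below turn on the peaks at the gene starts. The sequences are the 200 bases before the first listed start of each gene, from RefSeq on GRCh38.p14, 5′ to 3′ on the strand of the gene. They lie at chr7:50304516-50304715 (plus strand) for IKZF1, chr2:213152457-213152656 (minus strand) for IKZF2 and chr10:123008796-123008995 (minus strand) for IKZF5. Capitals mark matches, on either strand, to TGGGAA (a core bound by Ikaros), TGTGGT (bound by RUNX factors), AGGAAG (bound by ETS factors) and CANNTG (the E-box). None of the marked matches overlap. A promoter sequence was matched for these 3 of the 4 genes, and IKZF3 is named only.
IKZF1 promoter: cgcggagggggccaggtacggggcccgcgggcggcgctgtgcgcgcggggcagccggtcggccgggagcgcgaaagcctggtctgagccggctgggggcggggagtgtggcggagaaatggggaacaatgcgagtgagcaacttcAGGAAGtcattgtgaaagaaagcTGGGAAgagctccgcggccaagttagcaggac
IKZF2 promoter: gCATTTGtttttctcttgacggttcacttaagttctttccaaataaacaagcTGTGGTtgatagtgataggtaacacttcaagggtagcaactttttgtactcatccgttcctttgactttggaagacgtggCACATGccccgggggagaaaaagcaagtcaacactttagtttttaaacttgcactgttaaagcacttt
IKZF5 promoter: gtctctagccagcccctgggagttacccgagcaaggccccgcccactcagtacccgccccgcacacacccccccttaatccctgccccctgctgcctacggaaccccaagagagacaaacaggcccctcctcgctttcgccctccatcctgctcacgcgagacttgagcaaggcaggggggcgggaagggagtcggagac

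In these windows, IKZF1 held TGGGAA, whose first base lay 32 bases before the start, and AGGAAG, 55 bases before it. IKZF2 held TGTGGT, 148 bases before the start, and a pair of E-boxes. IKZF5 held none of the 4 motifs before its first start, while the same window before its second listed start, 108 bases downstream, held 1 TGTGGT and 1 E-box. Of all 35116 promoters listed, 17.0% held TGGGAA, 8.72% TGTGGT, 23.9% AGGAAG and 54.0% an E-box in the same window, and the motifs were picked with the sequences in view. The windows before the first starts also differed in base composition, with 68.5% G and C at IKZF1, 66.5% at IKZF5 and 40.0% at IKZF2. The median over all promoters was 59.0%. Of these first windows, that of IKZF1 had 21 CpG dinucleotides, that of IKZF5 had 11 and that of IKZF2 had 4. At the later starts IKZF1 no longer had more G and C than IKZF2. The window before the second start of IKZF2 had 52.5%, above both later windows of IKZF1, with 34.5% before the third. A match is a description of the letters and does not show binding.

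All 4 genes carried a peak over their start, but the peaks fell into a strong, wide pair and a weaker, narrow pair. The fold, here and below, is the authors' value per peak, the ratio of H3K27ac pileup to the local input level. The start peak of IKZF1 had a fold of 14.7 over 14386 bp, and that of IKZF2 had a fold of 11.2 over 26738 bp. The start peak of IKZF5 had a fold of 5.11 over 3088 bp, and that of IKZF3 had a fold of 4.62 over 2500 bp. Among all peaks of the list, that of IKZF1 ranked 202 by fold and that of IKZF2 ranked 1501, above 99.6% of the list for IKZF1 and 97.1% for IKZF2. That of IKZF5 ranked 15047, above 71.2% of the list, and that of IKZF3 ranked 16826, above 67.8%. At IKZF1 and IKZF2 the start peak was the strongest of its window, while at IKZF5 it ranked 3 of 3 and at IKZF3 it ranked 4 of 14. The gene starts were known only to 1 kb, and each of the 4 peaks covered its rounded start. Without an hg19 annotation, the share of all genes with a start peak was not computed. The ranks are among peaks of any place, not among start peaks, so they do not show whether these starts are unusual.

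**Figure D1:**
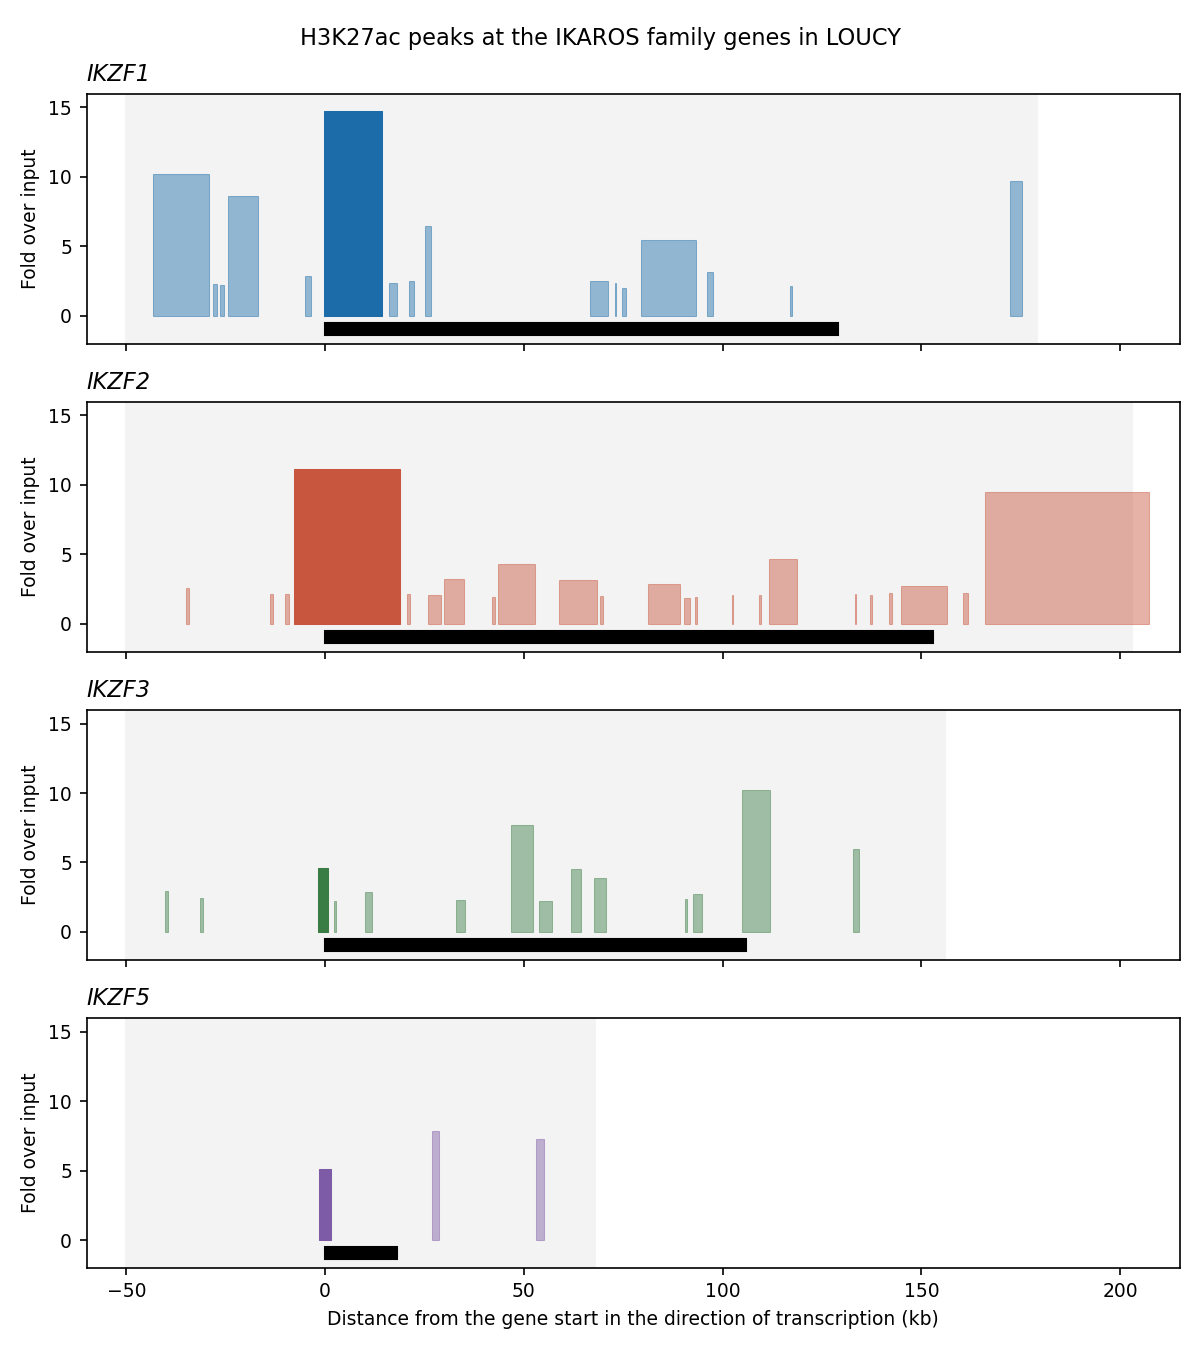
H3K27ac peaks in the windows of the 4 genes, with distance from the gene start in the direction of transcription in kb and fold over input as height; each block is 1 peak, the full colour marks the peak at the start, the black bar the gene body and the grey ground the window. The start peaks of IKZF1 (fold 14.7) and IKZF2 (fold 11.2) stand above the other peaks of their windows, while those of IKZF3 (fold 4.62) and IKZF5 (fold 5.11) do not.

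IKZF1 lies on the plus strand in 7p12.2, and its body was taken as 50344000 to 50473000 of chromosome 7. The start peak, at 50343821 to 50358206, reached 0.179 kb upstream of the rounded start and 14.2 kb into the gene, with a -log10 q of 141. In RefSeq the other listed starts of IKZF1 lie 3984 and 14332 bases downstream of the first, distances that were measured on GRCh38.p14 and not carried over to hg19. A pair of strong peaks lay upstream. The farther, at 50300571 to 50314832, had a width of 14262 bp and a fold of 10.2 and ended 29.2 kb before the start. The nearer, at 50319593 to 50327183, had a width of 7591 bp and a fold of 8.64 and ended 16.8 kb before it. The start peak and both upstream peaks were thus each wider than 7 kb and above a fold of 8.

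Inside IKZF1 the mark was split into a part near the start and a part deeper in the gene. Near the start, a narrow peak of 1524 bp at 50369203 to 50370726 had a fold of 6.48. It was followed by 39.9 kb without a peak, from 50370727 to 50410629. The deeper part held a wide peak of 13659 bp at 50423568 to 50437226, whose fold of 5.48 was well under that of the start peak of like width. The peak that ranked 3 by fold in the window, at 50516176 to 50519425 with a fold of 9.68 over 3250 bp, lay 43.2 kb past the end of the gene body. The nearest protein-coding gene on that side, by gene order in RefSeq, is FIGNL1, a DNA repair gene, followed by DDC, and the peak was not assigned to any of them. The other 10 peaks of the window had folds between 2.02 and 3.12.

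IKZF2 lies on the minus strand in 2q34, with a body taken as 213864000 to 214017000 of chromosome 2. Its start peak, at 213998066 to 214024803, reached 7.80 kb upstream and 18.9 kb into the gene, with a -log10 q of 91.8, and ranked 218 of the list by width. The second start listed in RefSeq lies 2019 bases downstream of the first. The widest peak of the family lay past the other end of the gene, at 213809692 to 213851083. It was 41392 bp wide, rank 46 of the list by width, had a fold of 9.48 and began 12.9 kb beyond the end of the gene body. It extended out of the window, of which it covered 37084 bp. In the RefSeq gene order the next protein-coding genes are ERBB4 on that side and SPAG16 on the other. Noncoding genes were left out of this order.

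The remaining 21 peaks at IKZF2 were weaker but many. The strongest of them, at 213898372 to 213905422, had a fold of 4.69 over 7051 bp, 112 kb into the gene. Next were a peak at 213964261 to 213973396 with a fold of 4.30 over 9136 bp and a peak at 213982155 to 213987153 with a fold of 3.20 over 4999 bp. Another wide peak, at 213860591 to 213872126, crossed the end of the gene and had a fold of 2.75 over 11536 bp. Of the 16 peaks wholly inside the gene body and apart from the start peak, 12 had a fold below 3, and over the whole window 17 of 23 (73.9%) did, against 48.2% of all peaks in the list. The highest fold among the 16 was 4.69, against 6.48 among the 9 such peaks of IKZF1 and 7.71 among the 9 of IKZF3.

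IKZF3 lies on the minus strand in 17q12, with a body taken as 37914000 to 38020000 of chromosome 17. Its strongest peak was at the opposite end from the start. It lay at 37908201 to 37915049, overlapped the last 1.05 kb of the gene body, and had a fold of 10.2 over 6849 bp with a -log10 q of 62.2. By gene order the next protein-coding genes past this end are GRB7, an adaptor gene, MIEN1 and ERBB2, a receptor tyrosine kinase gene, and the peak was not assigned to any of them. The second peak by fold was inside the gene, at 37967649 to 37973217, with a fold of 7.71 over 5569 bp, 46.8 kb from the start. Another, at 37885614 to 37887144, had a fold of 5.99 over 1531 bp and lay 26.9 kb past the gene end. It was likewise not assigned to a gene.

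The start peak of IKZF3, at 38019197 to 38021696, ranked 4 in the window, with a -log10 q of 17.9. It was close in fold to an inner peak at 37955710 to 37958069, with 4.62 over 2500 bp at the start and 4.55 over 2360 bp inside. Another wide peak, at 37962959 to 37966277, had a fold of 2.22 over 3319 bp. Upstream of the start, towards ZPBP2 and GSDMB, the start peak was followed by 28.9 kb without a peak, and the 2 peaks beyond had folds of 2.42 and 2.95. Of the 14 peaks in the window, 8 (57.1%) had a fold below 3, against 48.2% of the list.

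IKZF5 lies on the minus strand in 10q26.13, with a short body taken as 124750000 to 124768000 of chromosome 10. Its start peak, at 124766582 to 124769669, reached 1.67 kb upstream and 1.42 kb into the gene, with a -log10 q of 16.2. RefSeq places the first start of ACADSB, an acyl-CoA dehydrogenase gene on the other strand, 210 bases away on GRCh38.p14. The peak was wider than this distance, so the mark at the start of IKZF5 cannot be told apart from that at the start of ACADSB. The rest of the gene body, 16.6 kb, held no peak. The other peaks of the window were stronger than the start peak and lay past the gene end, on the side of PSTK and C10orf88. One, at 124739281 to 124741051, had a fold of 7.84 over 1771 bp and the other, at 124712828 to 124714874, had a fold of 7.26 over 2047 bp. They lay 8.95 kb and 35.1 kb beyond the gene body and were not assigned to IKZF5 or to any neighbour.

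Set against the whole list, the 56 peaks were many weak ones and a few strong ones. A fold of 10 or more was reached by 4 of the 56, or 7.14%, against 5.21% of all peaks. These were the start peaks of IKZF1 and IKZF2, the far upstream peak of IKZF1 and the peak at the end of IKZF3. A fold of 6 or more was reached by 11 of 56 (19.6%), against 23.2% of all peaks, and a fold below 3 was found in 34 of 56 (60.7%), against 48.2%. The share below 3 differed by gene, with 17 of 23 at IKZF2, 9 of 16 at IKZF1, 8 of 14 at IKZF3 and 0 of 3 at IKZF5. A -log10 q of at least 10 was reached by 19 of 56 (33.9%), against 36.8% of all peaks. The median fold was 2.65 at the family and 3.08 over the list, and the median width was 1556.5 bp at the family and 1670 bp over the list. By these measures the family's peaks were near the rest of the list or slightly weaker. Peaks of 10000 bp or more were 6 of 56 (10.7%), against 4.37% of the list, with 3 at IKZF1, 3 at IKZF2 and none at IKZF3 or IKZF5. The 11 peaks of fold 6 or more held 51.0% of the sequence covered in the windows, against 49.9% of the covered sequence for such peaks in the whole list.

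**Figure D2:**
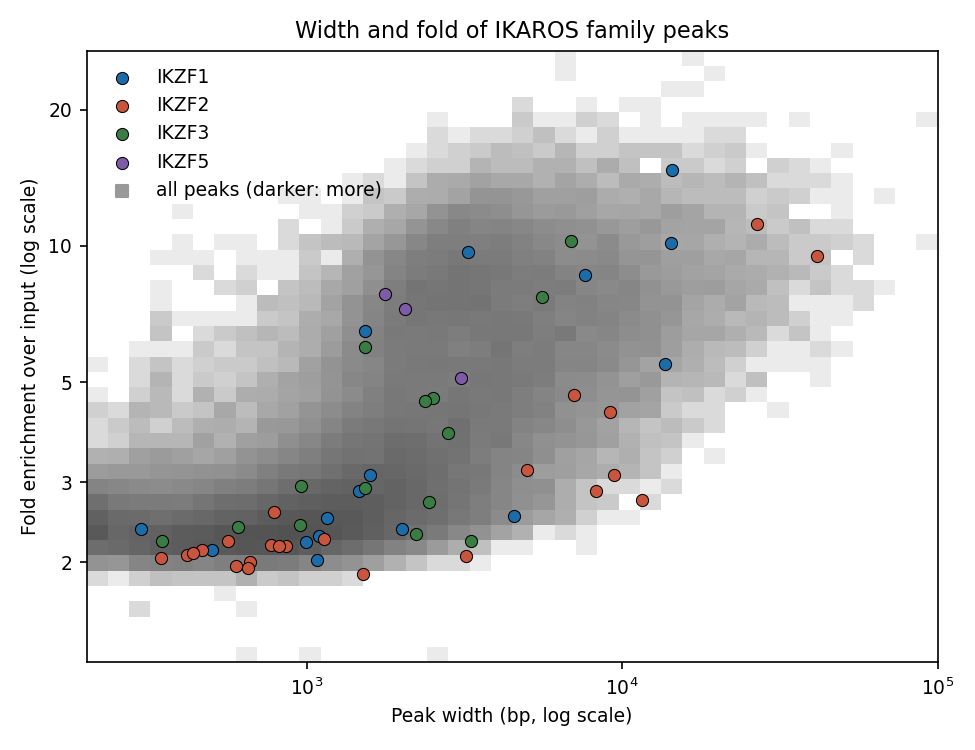
Width in bp and fold over input of the 56 peaks of the family (coloured points) and of all 52203 peaks (grey squares, darker where there are more), both axes on a log scale. The start peaks of IKZF1 (14386 bp, fold 14.7) and IKZF2 (26738 bp, fold 11.2) lie at the upper right, and most points lie at the lower left with folds below 3.

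The genes differed in how densely the mark was laid. Peaks covered 50.3% of the window of IKZF2 (127370 of 253001 bp), 30.3% of that of IKZF1 (69364 of 229001 bp), 16.5% of that of IKZF3 (33955 of 206001 bp) and 5.85% of that of IKZF5 (6906 of 118001 bp). For comparison, the 22 autosomes and chromosome X were cut into tiles of the length of each window. The median tile was covered to 1.66% at the length of the IKZF2 window, 1.62% at that of IKZF1, 1.46% at that of IKZF3 and 0.754% at that of IKZF5. A cover at least as high was found in 0.200% of tiles for IKZF2, in 1.96% for IKZF1, in 8.23% for IKZF3 and in 24.6% for IKZF5. Tiles include assembly gaps and stretches without genes, which lowers their cover, so the windows of genes are not set against other genes here. Peak density followed the same order, with 9.09 peaks per 100 kb at IKZF2, 6.99 at IKZF1, 6.80 at IKZF3 and 2.54 at IKZF5, against 1.72 over the genome. This order rested on weak peaks, and the place of IKZF2 turned on the cutoff. Counting only peaks with a -log10 q of 5 or more left IKZF2 densest, at 3.16 peaks per 100 kb. IKZF1 then had 2.62, IKZF3 had 2.91 and IKZF5 had 2.54. With a -log10 q of 10 or more IKZF2 was last, at 1.58, while IKZF1, IKZF3 and IKZF5 kept these values.

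**Figure D3:**
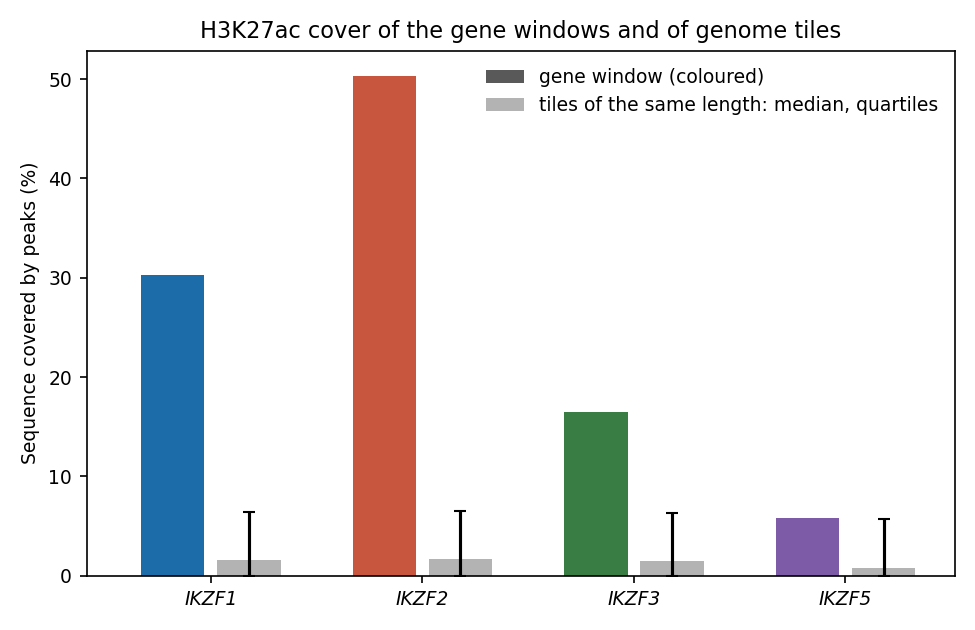
Share of sequence covered by H3K27ac peaks, in percent, for the window of each gene (coloured bars) and for genome tiles of the same length (grey bars, median, with error bars from the lower to the upper quartile). The windows of IKZF2 (50.3%), IKZF1 (30.3%) and IKZF3 (16.5%) lie above the upper quartile of their tiles, and that of IKZF5 (5.85%) lies beside it.

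Along the gene bodies the pattern differed as well. Each body was divided into 4 equal parts, counted from the start. Peaks of any fold were counted, and these shares were not computed at a stricter threshold. Of the peaks wholly inside the body and apart from the start peak, many had a fold below 3. These were 12 of 16 at IKZF2, 6 of 9 at IKZF1 and 6 of 9 at IKZF3. At IKZF2 the cover was 73.0%, 51.8%, 37.5% and 35.2% from the first to the last part, so that every part held the mark. At IKZF1 it was 58.6% in the first part, 0 in the second, 62.8% in the third and 4.29% in the last. At IKZF3 the first part was the least covered, with 10.1%, and the later ones had 29.4%, 32.0% and 15.4%. At IKZF5 the first part was covered to 31.5% and the others held no peak. The start peak held 44.7% of the cover in the window of IKZF5, 21.0% at IKZF2, 20.7% at IKZF1 and 7.36% at IKZF3.

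**Figure D4:**
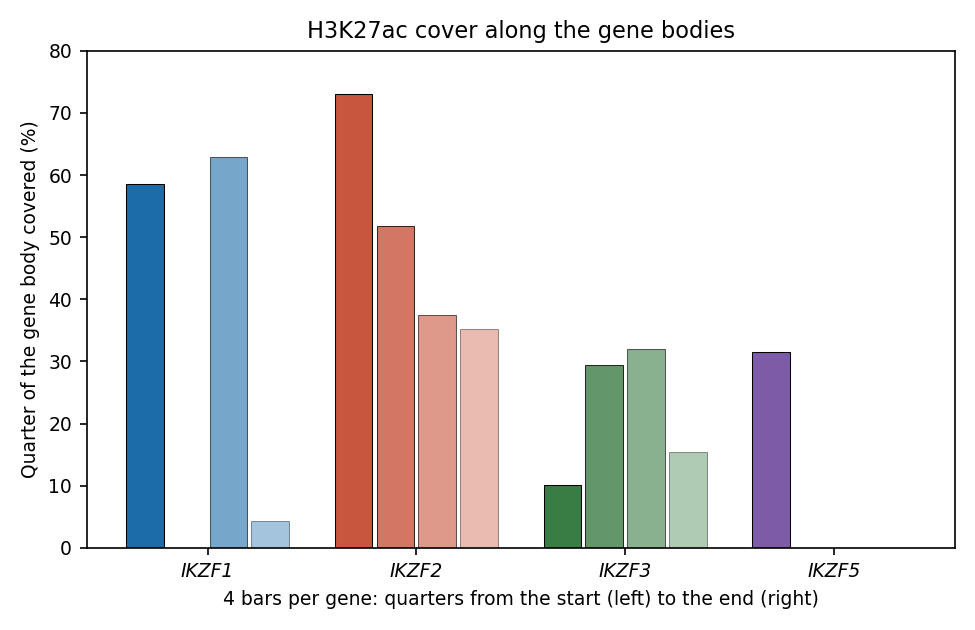
Share of each of 4 equal parts of the gene body covered by H3K27ac peaks of any fold, in percent, with the part at the gene start on the left. IKZF2 declines from 73.0% to 35.2%, IKZF1 alternates between high and low parts, IKZF3 is lowest at the start with 10.1%, and IKZF5 has cover in the first part alone.

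Peaks were then joined within 12.5 kb and the joined regions put in order of their summed product of fold and width, and those above the point where the rank curve reaches a slope of 1 on the unit square were called large domains. Of 25510 regions, 1421 were large, or 5.57%. The windows of the family touched 15 regions, of which 3 were large. The region over the start of IKZF2, at 213898372 to 214030827, ranked 189, spanned 132 kb and held 16 peaks. The region over the start of IKZF1, at 50300571 to 50370726, ranked 204, spanned 70.2 kb and held 9 peaks, among them both strong upstream peaks. Another, over the end of IKZF2 and beyond it, at 213795036 to 213883810, ranked 219, spanned 88.8 kb and held 8 peaks, some of them outside the window.

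The starts of the other 2 genes lay outside large domains. The region over the start of IKZF3 ranked 11176, with 3 peaks in 13.4 kb, and that over the start of IKZF5 ranked 11546, with 1 peak in 3.09 kb. The highest-ranked region at IKZF3 was the one that holds the peak at its end, rank 2810 over 21.3 kb, followed by the inner one, rank 2860 over 37.6 kb. At IKZF1 the deeper part of the gene formed a region of its own, at 50410630 to 50441635, with rank 2261. Start peaks entered the ranking, and the large domains therefore mix promoters with other elements. The order of neighbouring ranks has no replicate check.

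**Figure D5:**
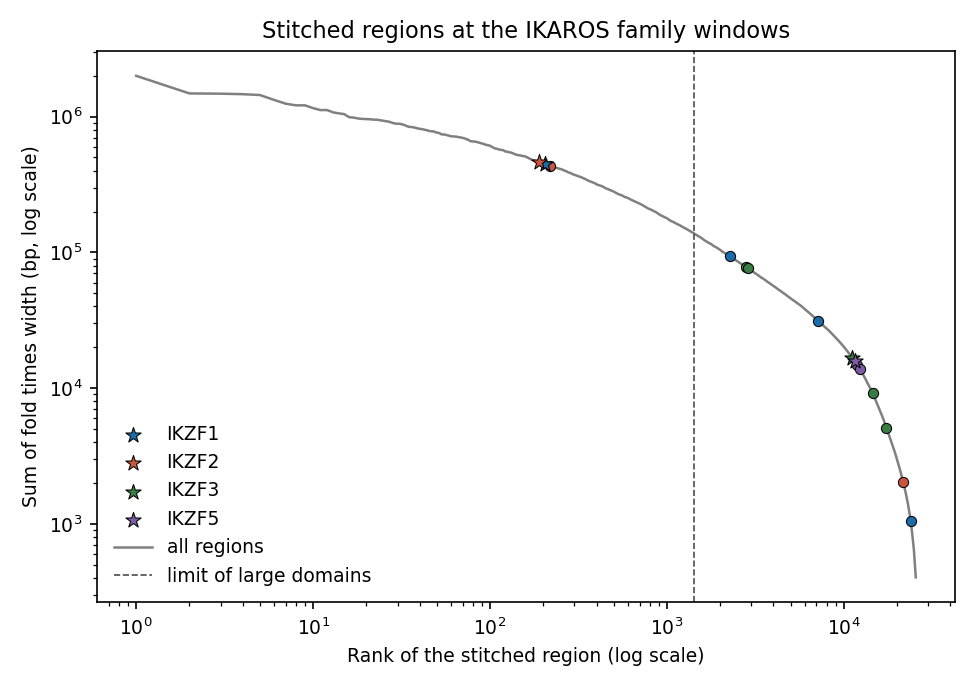
Rank of the joined regions and their sum of fold times width in bp, both on a log scale; stars mark the regions over the gene starts, dots the other regions at the family, the grey line all regions and the dashed line the limit of the 1421 large domains. The starts of IKZF2 (rank 189) and IKZF1 (rank 204) lie left of the limit, and those of IKZF3 (rank 11176) and IKZF5 (rank 11546) lie far to its right.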

How the data were processed

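H3K27ac ChIP-seq and input DNA of LOUCY were sequenced in 1 library each, and Bowtie2 and MACS2 were used with hg19, per the submitters' processing notes. Per the file headers, the authors called broad peaks with MACS2 version 2.1.0.20140616 against input at a q cutoff of 0.05, kept 1 tag per position, which caps the strongest peaks, and scaled the larger library towards the smaller. The filter dropped 13.2% of H3K27ac tags and 3.07% of input tags. Each peak has a deposited fold enrichment, a ratio of pileup to local control, and the caller's -log10 p-value and -log10 q-value as deposited. Some members had a deposited q-value above 0.05, with a -log10 q down to 1.19 at IKZF1 and 1.25 at IKZF2. Being in the list thus did not mean a deposited q-value of 0.05 or less. The deposited width in bp equalled end minus start plus 1. The pileup column of the deposited file held values below 0 in each of its 52203 rows and was set aside.

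The windows follow gene bodies given to 1 kb. Strands came from RefSeq promoter entries (GRCh38.p14), and that of IKZF3 from textbook knowledge. RefSeq coordinates were not set against hg19, and neighbours are named by order only. Chromosome lengths and bands came from the hg19 table in circlize 0.4.16. No test was run, since peaks are not replicates. Tiles, joining and overlaps were checked on simulated data. All peaks were named at IKZF5, and elsewhere the start peak, the 5 of highest fold and the 3 widest; peaks named beyond this rule were chosen after their values were seen. The members and lists were chosen with earlier results of these data known. The partner genes and cell type markers planned for a full hg19 annotation were not analysed here. Alternatives were stricter thresholds, other flanks, overlaps and start windows, and other ways to join and rank. Scripts ran under Python 3.11.15 (pandas 2.3.3, numpy 2.4.6; figures by matplotlib 3.10.9).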

Additional observations from a re-analysis of the deposited data

How the results depend on the processing

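The number of peaks depended on the authors' threshold. Of 56 peaks, 23 had a -log10 q of 5 or more, 19 of 10 or more, and 18 lay at a fold of at least 4. Other flanks (none, 25 kb or 100 kb) gave 40 to 74 peaks, and asking for at least 50% of the peak inside the window gave 56. The covered share of all windows together was 29.5% and ran from 19.9% to 34.6% over its 6 alternatives. Under the -log10 q limit of 10, that of IKZF2 fell to 31.6%, and that of IKZF3 fell to 9.13% at a fold of at least 4, and that of IKZF5 fell to 3.44% with a flank of 100 kb, yet the order IKZF2, IKZF1, IKZF3, IKZF5 was the same in all 6. The order by peaks per 100 kb was not, with IKZF2 highest at a -log10 q limit of 5 (3.16). IKZF2 was lowest at a -log10 q limit of 10 (1.58) and at a fold of at least 4 (1.58). All 4 genes had a start peak in the 3 alternatives run for it. With joining within 5000 bp, ranking by width or the -log10 q limit of 10, the large domains numbered 4 each, against 3, with a second one at IKZF1. The starts of IKZF1 (ranks 389 to 544) and IKZF2 (ranks 120 to 302) lay in large domains in all 3, and those of IKZF3 and IKZF5 in none. No paired analysis was possible because each group held 1 library.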

Other observations

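Many peaks at IKZF2 had a low fold for their width. Each peak was set beside 500 peaks of the list taken from either side of it in order of width, a measure chosen after the values were seen. For the widest peaks the set ran to the end of the list and was not centred on their width. At IKZF2, 20 of 23 peaks had a fold below the median of their like-width peaks, against 9 of 16 at IKZF1, 6 of 14 at IKZF3 and 0 of 3 at IKZF5. By construction the whole list is split about evenly. The peak across the end of IKZF2 (11536 bp, fold 2.75) had a higher fold than 0.200% of its like-width peaks, whose median was 7.42. A peak at 213927612 to 213935855 in the gene body (8244 bp, fold 2.88) stood at 0.400%, and one at 213948694 to 213958105 (9412 bp, fold 3.12) at 1.60%. The start peak of IKZF2 stood at 77.0% and the 41392 bp peak past the gene end at 59.8%. Both were set beside the widest peaks of the list (median fold 8.88), most of them narrower than the 41392 bp peak. These shares are therefore not strictly for like width. The only other IKZF2 peak above its median lay upstream, at 214051151 to 214051937 (69.2%). The wide inner peak of IKZF1 (13659 bp, fold 5.48) stood at 15.8%, while its start peak stood at 97.8%. The fold is 1 value per broad peak, and how it varied within a peak was not tested.

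Some peaks lay just beyond the windows. Upstream of IKZF2, a peak of 28876 bp with a fold of 7.83, at 214082427 to 214111302, lay 15.4 kb outside. Upstream of IKZF3, a peak of 7843 bp with a fold of 5.56, at 38077189 to 38085031, lay 7.19 kb outside. On the upstream side of IKZF5 the next peak, at 124912700 to 124915599 with a fold of 9.80, was 94.7 kb from the window. That of IKZF1 lay 25.4 kb outside, with a fold of 3.21. The next peaks downstream were weak. They lay 0.213 kb outside at IKZF3 (fold 2.59) and 9.34 kb at IKZF5 (fold 2.43). At IKZF2 the distance was 11.9 kb (fold 2.15) and at IKZF1 40.9 kb (fold 2.89).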
